A study of Homo sapiens with 16 samples.

Results

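The comparison described here set HCC4006 cells given gefitinib together with AZ1366 against HCC4006 cells given AZ1366 alone, and so shows what an EGFR inhibitor did to gene expression in cells that also received a tankyrase inhibitor. It used 8 of the 16 libraries of the study, 4 per group, chosen by their treatment labels. HCC4006 is an established human lung adenocarcinoma line whose EGFR carries an activating deletion. All cells were grown for 24 h after plating and then treated for 24 h. The combined group received gefitinib at 100 nM and AZ1366 at 100 nM, and the AZ1366 group received AZ1366 at 100 nM. The remaining 8 libraries, 4 from cells given gefitinib at 100 nM and 4 from cells given the vehicle DMSO, entered the fit and gave the effect of gefitinib without AZ1366. PolyA RNA was sequenced, and 24293 loci carried a value in FPKM, a level scaled by transcript length and library size. The 11647 loci with a mean of at least 1 FPKM over the 16 libraries were tested. One line, dose and time were studied. The treatments were made in quadruplicate per the labels, with no word on separate cultures or days, so the p-values cover the variation among these libraries, which may be technical.

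EGFR is a receptor tyrosine kinase that signals through RAS, RAF, MEK and ERK and through PI3K and AKT, and lung cancer cells with an activating EGFR mutation depend on it for proliferation and survival. Active ERK switches on its own inhibitors, the DUSP phosphatases and the Sprouty and SPRED proteins, together with cyclin D1. Gefitinib blocks the kinase by competing with ATP. Tankyrases are poly(ADP-ribose) polymerases that mark AXIN and angiomotin proteins for degradation, so their inhibition stabilizes AXIN, which restrains Wnt and beta-catenin signalling, and angiomotins, which restrain YAP.

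The libraries carried the RNA of an epithelial cell. Keratin and adhesion transcripts were abundant, with EPCAM at 292 FPKM in the combined group and 258 with AZ1366 and KRT7 at 1330.3 and 1402, whereas the surfactant gene SFTPB and NAPSA stayed under 0.5 FPKM in all 8 libraries. Of the 19 markers of fibroblasts, endothelium and blood cells in the table, 11 stayed under 0.5 FPKM in all 8 libraries and CD3D, MS4A1 and HBB were listed at 0 in all of them. The sum of these 19 markers was 66.0 to 72.1 FPKM in the combined group and 43.2 to 50.2 with AZ1366, of which CD68, a lysosomal protein, made up most (59.1 and 41.3 FPKM on average). Between libraries of the combined group the correlation of log2 values across tested loci was 0.997 to 0.998, within the AZ1366 group 0.991 to 0.998, and between the groups 0.958 to 0.973. One AZ1366 library, replicate 1, stood apart: on the first principal component, which held 71.8% of the variance, it lay at -19.6, against -6.50 to -3.10 for the other 3 AZ1366 libraries and 31.0 to 38.1 for the combined group, so it lay farthest from the combined group. Its mean correlation with the vehicle libraries was 0.990, against 0.979 to 0.981 for the other 3. Counts were therefore also taken without it. The log2 change was also related to transcript length (Spearman -0.229 across 11562 loci). Loci that fell had a median length of 3307 nt and loci that rose one of 2292 nt, and the deviation of single libraries from their group mean followed length as well, from -0.531 in AZ1366 replicate 3 to 0.502 in AZ1366 replicate 1. The part of these measures in the results was not tested beyond the fits without that library and with length and GC correction.

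Adding gefitinib to AZ1366 changed most of the tested loci. At an adjusted p under 0.05, 7294 loci (62.6%) were called: 3135 rose and 4159 fell, 26.9% and 35.7% of those tested, and 199 rose and 192 fell by a log2 change of 1 or more (1.71% and 1.65%). The values of the 2 groups did not overlap for 2646 loci that were higher (22.7%) and 3583 that were lower (30.8%). The median change over all tested loci was -0.053. Without AZ1366 replicate 1, 3527 rose and 3695 fell. With so many loci called, a list of genes is read below against these shares and against that median, and a log2 change always means the change of log2(FPKM + 1), which understates the change of genes of low level. The filter takes the mean over all 16 libraries, so a gene low without gefitinib can pass through the libraries given gefitinib. The rise of such a gene was favoured by the filter, and the same holds for falls in the other direction. FPKM are shares of a library, so a lower value can come from fewer cells that make the transcript or from less of it per cell, and the 2 cannot be told apart.

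Transcripts that serve as readouts of ERK activity fell, while ERK activity itself was not measured in these libraries. DUSP6, an ERK-specific phosphatase that active ERK switches on, stood at 3.39, 3.28, 2.61 and 2.67 FPKM in the 4 combined libraries, against 26.2, 19.98, 21.7 and 23.5 FPKM in the 4 AZ1366 libraries (chromosome 12, 89741837 to 89746296). All 4 combined libraries lay far below all 4 AZ1366 libraries, and the log2 change was -2.58 ± 0.080 (adjusted p = 8.98e-14), the largest fall among tested loci. PHLDA1, an early target of the same pathway, followed with 4.84, 5.08, 4.03 and 3.98 FPKM in the combined libraries, against 35.1, 24.1, 25.6 and 25.8 with AZ1366 (-2.38 ± 0.093, adjusted p = 1.14e-12). Of 12 tested feedback regulators of ERK, 10 fell and 0 rose, with a median of -0.90, and the ERK phosphatase DUSP4 (-1.35 ± 0.075) and the RAS pathway inhibitor SPRED2 (-1.16 ± 0.082) were next in size. SPRY1 and IER3 did not pass, at -0.14 and 0.14.

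Transcription factors downstream of ERK divided. FOSL1, a FOS-family component of AP-1, stood at 4.43, 5.03, 4.88 and 4.703 FPKM in the combined libraries, against 26.7, 17.8, 24.2 and 22.3 with AZ1366 (-2.03 ± 0.102, adjusted p = 2.27e-11), and the ETS factor ETV1 at 1.22, 0.993, 1.05 and 1.18 FPKM, against 7.89, 7.22, 6.46 and 7.94 (-1.99 ± 0.062). Its relative ETV5 averaged 2.68 ± 0.196 FPKM in the combined group and 8.61 ± 0.724 with AZ1366 (-1.39 ± 0.067). In all, 8 of 17 AP-1, ETS and early growth response factors fell and 3 rose (median -0.23, and -0.084 with 8 falls and 6 rises without AZ1366 replicate 1). The stress-induced repressor ATF3 was among those that rose, at 9.56 ± 0.608 FPKM in the combined group and 3.95 ± 0.153 with AZ1366 (1.09 ± 0.064).

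**Figure D1:**
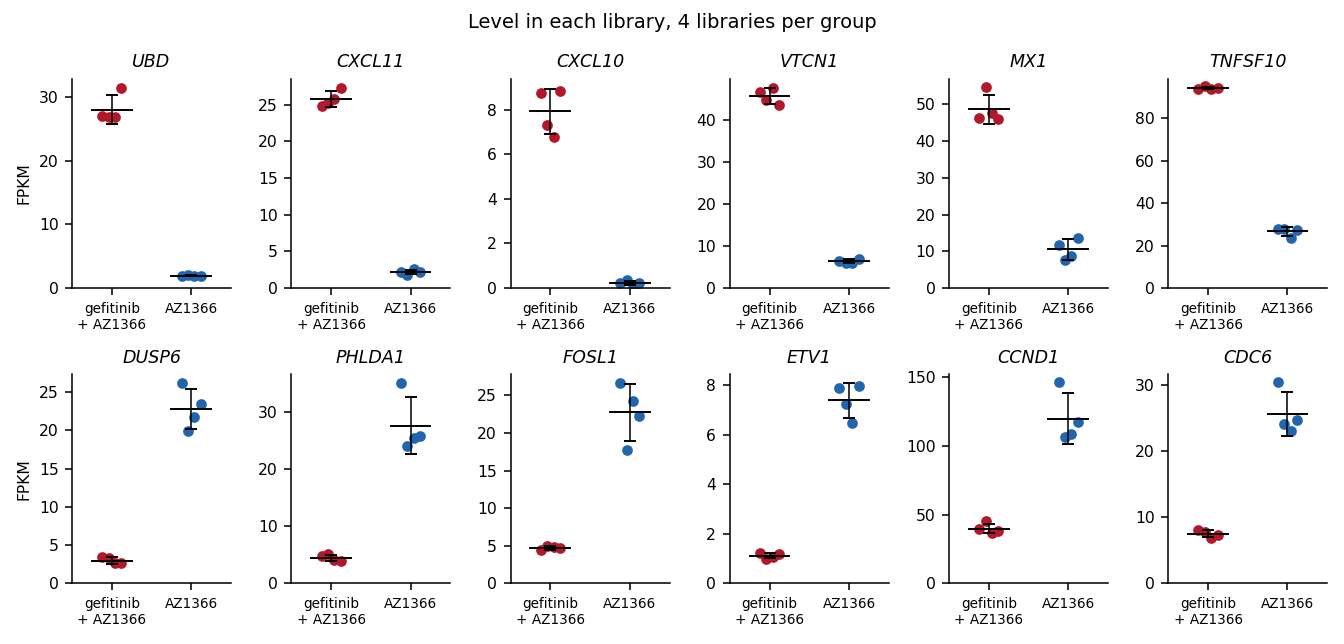
FPKM in each of the 4 libraries of cells given gefitinib plus AZ1366 (red, left) and the 4 libraries of cells given AZ1366 (blue, right); bars show the mean and SD, and each axis starts at 0. In the top row the combined libraries lie above all AZ1366 libraries, and in the bottom row below them; for DUSP6 the combined libraries reach at most 3.39 FPKM and the lowest AZ1366 library stands at 19.98 FPKM.

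Growth factor receptors and ligands of the EGF family changed in both directions. The transcript of the drug's target fell: EGFR stood at 22.4, 23.4, 18.9 and 18.6 FPKM in the combined libraries, against 54.3, 35.01, 35.9 and 39.9 with AZ1366 (-0.94 ± 0.11, adjusted p = 1.45e-06). Its ligands AREG (1.08 ± 0.0367 FPKM in the combined group and 5.06 ± 0.599 with AZ1366, -1.54 ± 0.070) and TGFA (-0.81 ± 0.073) fell too, whereas ERBB2 (0.45 ± 0.11) and ERBB3 (0.42 ± 0.077), the receptors with which EGFR pairs, rose. All 7 tested members of this family were called, 2 higher and 5 lower; AREG is listed at 2 loci, and the one with the higher level is given. Among 15 other receptor kinases and ligands 5 rose and 7 fell, against 26.9% and 35.7% of all loci. MET, the hepatocyte growth factor receptor and a known route of resistance to EGFR inhibitors, averaged 40.3 ± 1.695 FPKM in the combined group and 87.8 ± 8.68 with AZ1366 (-1.099 ± 0.065), and the ephrin receptor EPHA2 changed by -1.27 ± 0.11. FGFR2 rose by 0.48 ± 0.0997, although its values in the 2 groups overlapped, and the ligand PDGFB rose by 0.48 ± 0.063.

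Genes of the cell cycle engine fell without exception in 2 of the lists. CCND1, which encodes cyclin D1, stood at 39.5, 44.99, 36.8 and 38.1 FPKM in the combined libraries, against 147, 107, 108 and 117 with AZ1366 (-1.55 ± 0.088, adjusted p = 1.04e-10). Of 13 tested G1 cyclins, their kinases and MYC, 11 fell and 0 rose (median -0.77). CCNE2, a cyclin E, averaged 5.19 ± 0.176 FPKM in the combined group and 13.1 ± 0.863 with AZ1366 (-1.19 ± 0.065). The transcription factors E2F1 (-0.94 ± 0.088) and MYC (-0.74 ± 0.081) and the CDK-activating phosphatase CDC25A (-0.92 ± 0.094) fell as well. CDK4 and CDK6 did not pass, at -0.024 and 0.060.

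All 38 tested DNA replication genes fell, against 35.7% of all loci, with a median of -0.91. The origin-licensing factor CDC6 led together with MCM10: CDC6 stood at 8.05, 7.76, 6.93 and 7.26 FPKM in the combined libraries, against 30.4, 24.1, 23.03 and 24.7 with AZ1366 (-1.64 ± 0.070, adjusted p = 2.69e-12), and MCM10 averaged 2.11 ± 0.104 FPKM in the combined group and 8.94 ± 1.14 with AZ1366 (-1.67 ± 0.079). ORC6, a subunit of the origin recognition complex, and CHAF1A, a histone chaperone at the fork, changed by -1.29 ± 0.093 and -1.15 ± 0.104. UHRF1, which keeps DNA methylation in place during replication and was among the 15 largest falls, changed by -1.57 ± 0.14.

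All 35 tested mitosis genes fell too, with a median of -0.91. ANLN, which encodes the cleavage furrow protein anillin, averaged 58.8 ± 3.09 FPKM in the combined group and 146 ± 23.3 with AZ1366 (-1.29 ± 0.0996). The proliferation marker MKI67 stood at 5.48, 5.12, 4.37 and 4.53 FPKM in the combined libraries, against 21.1, 10.6, 9.57 and 13.3 with AZ1366 (-1.26 ± 0.17, adjusted p = 5.75e-06). Among the AZ1366 libraries replicate 1 was the highest, and the groups did not overlap. TOP2A, the topoisomerase that untangles chromosomes, changed by -1.22 ± 0.11, and the kinetochore motor CENPE by -1.196 ± 0.31.

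The promoters of these genes hold the letters of known cell cycle elements more often than promoters in general. In the 250 bases before the gene start, on either strand, at least 1 of the E2F sites TTTGGCGC, TTTCCCGC, TTTCGCGC and TTTGCCGC was present in 12 of the 34 replication genes with a promoter in the RefSeq table (35.3%), against 3.4% of all 27305 genes in it. The cell cycle homology region TTTGAA was present in 15 of 28 mitosis genes (53.6%), against 16.1% of all genes. Neither motif contains the other, and a match describes the letters only. The share of all genes includes genes that were not tested, and listed genes were not compared with genes that did not fall. The shares therefore describe the lists and not their change with gefitinib. Windows of the 3 members with a match and the largest falls in each list, among the chromosomes shown, are given because the 2 lists fell as blocks; the letters are from RefSeq, build GRCh38.p14, written 5′ to 3′ along the gene's strand, and the capitals mark the match nearest the gene start, which can read on either strand.
GINS2 (chr16:85688955-85689020, minus strand, E2F site): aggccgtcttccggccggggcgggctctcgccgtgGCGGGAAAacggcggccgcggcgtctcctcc
MCM6 (chr2:135876487-135876564, minus strand, E2F site): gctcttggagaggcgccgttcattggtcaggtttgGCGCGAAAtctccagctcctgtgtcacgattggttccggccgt
POLA2 (chr11:65261874-65261951, plus strand, E2F site): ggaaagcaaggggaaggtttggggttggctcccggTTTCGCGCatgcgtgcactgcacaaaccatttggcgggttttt
ANLN (chr7:36389807-36389861, plus strand, cell cycle homology region): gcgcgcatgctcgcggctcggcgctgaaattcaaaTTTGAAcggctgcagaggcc
MKI67 (chr10:128126424-128126487, minus strand, cell cycle homology region): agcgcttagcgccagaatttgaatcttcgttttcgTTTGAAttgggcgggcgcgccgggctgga
TOP2A (chr17:40418007-40418082, minus strand, cell cycle homology region): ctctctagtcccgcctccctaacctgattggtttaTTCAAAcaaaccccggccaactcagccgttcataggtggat
GINS2, a subunit of the replicative helicase, fell by 1.09 on the log2 scale, the helicase subunit MCM6 by 1.01 and POLA2, a subunit of the primase complex, by 1.01.

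Inhibitors of the cycle gave a mixed picture. Of 20 tested cell cycle inhibitors and p53 targets, 10 rose and 4 fell (median 0.21), against 26.9% and 35.7% of all loci. TP53INP1, a p53-induced stress protein, stood at 12.3, 11.8, 11.4 and 11.7 FPKM in the combined libraries, against 2.68, 3.12, 2.53 and 3.34 with AZ1366 (1.71 ± 0.094, adjusted p = 7.58e-11). The inhibitor CDKN1C averaged 2.47 ± 0.264 FPKM in the combined group and 0.795 ± 0.124 with AZ1366 (0.95 ± 0.067), CDKN1B, which encodes p27, changed by 0.402 ± 0.058, and the antiproliferative gene BTG2 by 0.86 ± 0.070. CDKN1C stood at 0.588 to 0.783 FPKM in the vehicle libraries, so it passed the filter only through the libraries given gefitinib. GADD45A, a stress sensor, changed by 0.93 ± 0.19. CDKN1A, which encodes p21, stood at 47.9, 46.1, 48.2 and 48.2 FPKM in the combined libraries, against 45.9, 46.6, 47.9 and 46.8 with AZ1366, and did not pass (0.024 ± 0.042, adjusted p = 0.635); the value was -0.014 after length and GC correction.

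Genes that build ribosomes fell, and genes of ribosomal proteins rose in part. Of 27 ribosome biogenesis genes, 24 fell and 0 rose (median -0.75). TCOF1, the nucleolar protein treacle, stood at 5.504, 5.72, 4.38 and 4.55 FPKM in the combined libraries, against 21.8, 12.3, 12.8 and 14.4 with AZ1366 (-1.41 ± 0.15, adjusted p = 2.41e-07). RRS1 (-1.27 ± 0.14) and BOP1 (-0.95 ± 0.090), assembly factors of the large subunit, and the pseudouridine synthase DKC1 (-0.99 ± 0.063) fell as well. LYAR, a nucleolar protein outside the list, was among the 15 largest falls (6.78 ± 0.352 FPKM in the combined group and 26.7 ± 5.08 with AZ1366, -1.82 ± 0.094). Of 40 cytosolic ribosomal protein genes, 20 rose and 2 fell (median 0.20), by small amounts led by RPS21 (0.42 ± 0.12) and RPS14 (0.39 ± 0.065). Ribosomal protein reads can be shared with processed pseudogenes, so single members are uncertain. Subunits of oxidative phosphorylation rose in 16 of 35 cases and fell in 2 (median 0.14), with COX6C at 0.59 ± 0.12 and NDUFA1 at 0.58 ± 0.095. Across loci the log2 change was related to transcript length (Spearman -0.229). The fit with length and GC correction was made, but its values for these 2 lists are not given here. The part of length in their small rises cannot be told from the uncorrected values.

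Genes of lipid synthesis mostly fell. Of 25 cholesterol synthesis and uptake genes, 20 fell and 1 rose (median -0.45). HMGCS1, an early enzyme of the pathway, stood at 81.9, 85.2, 80.8 and 85.7 FPKM in the combined libraries, against 139.7, 127, 122 and 134 with AZ1366 (-0.64 ± 0.050, adjusted p = 6.43e-09). The single rise was that of the sterol reductase TM7SF2, at 37.3 ± 1.54 FPKM in the combined group and 15.8 ± 1.45 with AZ1366 (1.19 ± 0.073). On the fatty acid side, 11 of 13 synthesis genes fell and 1 rose (median -0.57), with the elongase ELOVL6 at -1.21 ± 0.080, the desaturase SCD at -1.14 ± 0.087 and the synthase FASN at -0.95 ± 0.12.

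Of 27 glycolytic and hypoxia-response genes, 22 fell and 1, the peptide hormone gene ADM, rose (median -0.35). The hypoxia-inducible genes NDRG1 (9.68 ± 0.239 FPKM in the combined group and 25.6 ± 2.16 with AZ1366, -1.31 ± 0.067), CA9, a carbonic anhydrase (-1.19 ± 0.078), and VEGFA, the angiogenic growth factor (-1.05 ± 0.11), and the glycolytic enzyme HK2 (-1.15 ± 0.079) fell most. Amino acid metabolism showed no common direction. Targets of ATF4 and amino acid transporters gave 7 rises and 6 falls among 21 (median -0.011), with the glutathione-degrading enzyme CHAC1 at 0.86 ± 0.067 and ATF4 itself at 0.64 ± 0.094, and aminoacyl-tRNA synthetases gave 3 rises and 7 falls among 20, with WARS, which interferon induces, at 0.61 ± 0.047 and FARSB at -0.92 ± 0.078.

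Interferon-stimulated genes rose as a group. Of 45 tested, 41 rose and 0 fell, against 26.9% of all loci that rose, and the median was 0.84. OAS2, which senses double-stranded RNA, stood at 18.5, 19.3, 19.8 and 18.8 FPKM in the combined libraries, against 3.47, 2.79, 2.97 and 4.53 with AZ1366 (2.19 ± 0.17, adjusted p = 3.81e-09). The antiviral GTPase MX1 stood at 46.3, 54.6, 47.6 and 45.97 FPKM, against 11.8, 7.69, 8.81 and 13.7 with AZ1366 (2.14 ± 0.22, adjusted p = 1.59e-07), and for both genes every combined library lay above every AZ1366 library. The antiviral TRIM22 averaged 3.42 ± 0.198 FPKM in the combined group and 0.185 ± 0.04704 with AZ1366 (1.8999 ± 0.068), and the GTPase GBP1 changed by 1.81 ± 0.097. TRIM22 stood at 0.0916 to 0.179 FPKM in the vehicle libraries. It passed the filter only through the libraries given gefitinib, so its place among the rises was favoured by that filter. The gene with the largest rise among tested loci, UBD, encodes the ubiquitin-like protein FAT10, which interferon gamma and TNF induce; it stood at 27.04, 26.8, 26.9 and 31.4 FPKM in the combined libraries, against 1.95, 1.99, 1.83 and 1.901 with AZ1366 (3.31 ± 0.067, adjusted p = 4.41e-16; chromosome 6, 29523389 to 29527702). Of the 21 interferon genes themselves in the table, 14 were listed at 0 in all 8 libraries and the highest value of any was 0.454 FPKM, that of IFNE in an AZ1366 library; IFNB1 ranged over 0.0383 to 0.211 FPKM in the combined group and 0 to 0.117 with AZ1366. The sum of the blood, endothelial and fibroblast markers was higher in the combined group, as given above, mostly through CD68. Of the 3 tested members CD68 and KDR, an endothelial growth factor receptor, rose and none fell, with KDR at 3.17 FPKM in the combined group and 0.888 with AZ1366. Below the filter, LUM, a matrix gene of fibroblasts, averaged 1.08 FPKM in the combined group and 0.348 with AZ1366, and the endothelial genes CDH5 0.420 and 0.187 FPKM and VWF 0.0951 and 0.0390 FPKM. The leukocyte gene PTPRC stood at 0.0429 FPKM in the combined group and 0.0464 with AZ1366, and the T and B cell genes CD3D and MS4A1 were listed at 0. The part of these markers in the interferon result was not tested.

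The letters of the interferon response element, GAAANNGAAA on either strand, were present in the 250 bases before the start of 24 of the 35 interferon-stimulated genes with a promoter in the table (68.6%), against 3.71% of all genes. Here too the shares describe the list and not its change with gefitinib. The windows of the 3 members with a match and the largest rises are given on the same build, with the match in capitals.
MX1 (chr21:41431819-41431898, plus strand): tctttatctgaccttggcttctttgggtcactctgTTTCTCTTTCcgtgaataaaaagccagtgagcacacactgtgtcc
GBP1 (chr1:89065291-89065370, minus strand): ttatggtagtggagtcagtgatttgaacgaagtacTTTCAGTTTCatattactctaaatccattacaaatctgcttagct
IFIT1 (chr10:89392485-89392564, plus strand): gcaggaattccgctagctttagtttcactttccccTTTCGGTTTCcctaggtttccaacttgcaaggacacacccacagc
IFIT1, which binds foreign RNA, rose by 1.72 on the log2 scale.

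**Figure D2:**
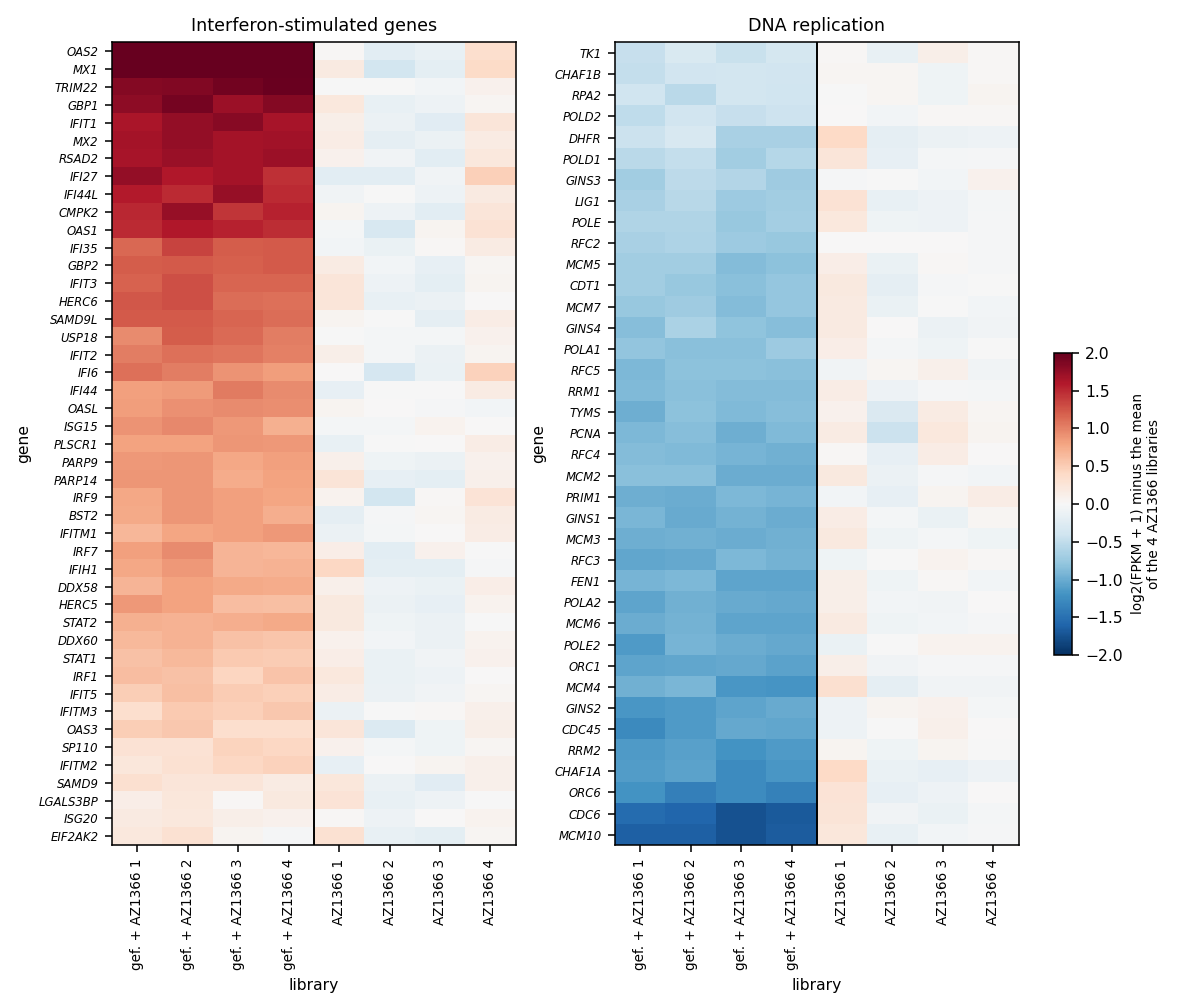
Each cell is 1 gene in 1 library, as log2(FPKM + 1) minus the mean of the 4 AZ1366 libraries, for the 45 tested interferon-stimulated genes (left) and the 38 tested DNA replication genes (right); the 4 libraries given gefitinib (gef.) plus AZ1366 stand left of the black line and the 4 AZ1366 libraries right of it, and the colour scale ends at -2 and 2. The combined libraries are red throughout the left panel for the 41 called genes and blue for all 38 replication genes, and the AZ1366 libraries lie close to 0 by comparison.

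Genes of antigen presentation mostly rose. Of 18 class I genes, 11 rose and 2 fell (median 0.40), against 26.9% and 35.7% of all loci. The immunoproteasome subunits PSMB10 (92.4, 85.5, 88.8 and 89.7 FPKM in the combined libraries, against 31.1, 31.4, 34.2 and 34.7 with AZ1366; 1.41 ± 0.061), PSMB9 (1.35 ± 0.083) and PSMB8 (1.05 ± 0.076), which shape peptides for presentation, and the peptide transporter TAP1 (0.94 ± 0.080) led. HLA-B and HLA-C did not pass, at 0.196 and 0.15, and reads of these polymorphic genes map uncertainly. All 7 tested class II genes rose (median 0.89), with the protease CTSS at 1.34 ± 0.079, the peptide loaders HLA-DMA at 1.19 ± 0.080 and HLA-DMB at 0.904 ± 0.057, and HLA-DRA, which averaged 6.32 ± 0.311 FPKM in the combined group and 2.97 ± 0.366 with AZ1366 (0.89 ± 0.079). Of 15 listed class II genes 7 passed the filter on level, so the count does not speak for the others. The filter also favoured rises of genes that were low without gefitinib. HLA-DMB stood under 1 FPKM in every vehicle library and at 1.02 to 1.41 FPKM with gefitinib, so its place among the rises was favoured. CTSS, HLA-DMA and HLA-DRA stood above 1 FPKM in every vehicle library.

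Chemokine genes rose in 6 of 7 tested cases and fell in 1. Of 17 listed chemokine genes 7 passed the filter on level, so the count does not speak for the others. Here too the filter favoured rises of genes that were low without gefitinib. CXCL11, a ligand of CXCR3 on T cells, stood at 24.9, 25.2, 25.8 and 27.2 FPKM in the combined libraries, against 2.15, 1.77, 2.56 and 2.24 with AZ1366 (3.08 ± 0.089, adjusted p = 4.12e-14). CXCL10, a ligand of the same receptor, stood at 8.77, 7.33, 6.796 and 8.83 FPKM, against 0.214, 0.344, 0.139 and 0.237 with AZ1366 (2.85 ± 0.091). Its level was under 1 FPKM in every AZ1366 and vehicle library, so it passed the filter only through the libraries given gefitinib. CCL2, which draws monocytes, averaged 311 ± 11.5 FPKM in the combined group and 90.8 ± 1.98 with AZ1366 (1.76 ± 0.058). IL8, which draws neutrophils, was the one that fell: 5.24, 6.004, 5.61 and 5.08 FPKM in the combined libraries, against 12.2, 10.6, 16.4 and 14.7 with AZ1366 (-1.14 ± 0.14, adjusted p = 2.25e-06). Of 19 genes of the NF-kB pathway and its targets, 12 rose and 0 fell (median 0.27), against 26.9% and 35.7% of all loci. The rises were led by the cytokine LTB (15.9 ± 1.95 FPKM in the combined group and 2.16 ± 0.521 with AZ1366, 2.43 ± 0.0996), the mitochondrial superoxide dismutase SOD2 (1.45 ± 0.060), the adhesion receptor ICAM1 (1.21 ± 0.105) and the apoptosis inhibitor BIRC3 (0.79 ± 0.072).

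Genes that shape the exchange with T cells moved in both directions, 7 up and 4 down among 12. VTCN1, which encodes the inhibitory ligand B7-H4, stood at 46.7, 44.7, 47.6 and 43.5 FPKM in the combined libraries, against 6.53, 6.02, 5.898 and 6.95 with AZ1366 (2.67 ± 0.060, adjusted p = 1.22e-15). Galectin-9, encoded by LGALS9 (24.01 ± 0.928 FPKM in the combined group and 6.18 ± 0.476 with AZ1366, 1.803 ± 0.065), and the tryptophan-degrading enzyme IDO1 (1.54 ± 0.061) rose. NT5E, which encodes the adenosine-producing enzyme CD73 and is also listed as a YAP target, stood at 32.5, 35.5, 28.2 and 28.9 FPKM in the combined libraries, against 158, 103, 118 and 113 with AZ1366 (-1.93 ± 0.11, adjusted p = 7.58e-11). CD274, which encodes PD-L1 and is named here because of its value, stood at 13.6, 14.5, 13.5 and 13.8 FPKM in the combined libraries, against 39.2, 33.1, 34.6 and 34.97 with AZ1366 (-1.29 ± 0.058, adjusted p = 5.10e-12). The median of the list was 0.48, and it was -0.18 over the members with a mean of at least 5 FPKM.

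Pro-apoptotic members of the BCL2 family rose in 6 of 11 cases and fell in 2 (median 0.30), against 26.9% and 35.7% of all loci. BMF, a BH3-only protein, stood at 37.7, 36.6, 33.6 and 33.4 FPKM in the combined libraries, against 16.1, 13.4, 12.7 and 14.7 with AZ1366 (1.26 ± 0.072, adjusted p = 1.17e-10). BCL2L11, which encodes BIM, the protein through which EGFR inhibitors are known to kill sensitive cells, averaged 4.75 ± 0.157 FPKM in the combined group and 3.03 ± 0.195 with AZ1366 (0.51 ± 0.062), and the BH3-only genes BBC3 (0.83 ± 0.096) and BIK (0.55 ± 0.082) rose as well. Pro-survival genes and inhibitors of apoptosis divided, 3 up and 3 down among 8. BCL2L1, which encodes BCL-XL, averaged 70.2 ± 2.71 FPKM in the combined group and 107 ± 5.17 with AZ1366 (-0.61 ± 0.054), and survivin, encoded by the cell cycle gene BIRC5, changed by -0.59 ± 0.061, whereas MCL1 rose by 0.396 ± 0.080.

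The death ligand TRAIL, encoded by TNFSF10, stood at 93.6, 95.01, 93.98 and 94.5 FPKM in the combined libraries, against 27.9, 27.9, 23.5 and 27.5 with AZ1366 (1.79 ± 0.097, adjusted p = 6.24e-11). TNFRSF10D, its decoy receptor, averaged 2.39 ± 0.341 FPKM in the combined group and 7.67 ± 1.12 with AZ1366 (-1.35 ± 0.091), and the inflammatory caspase CASP1 changed by 1.49 ± 0.090. Of 16 TRAIL, death receptor and caspase genes, 5 rose and 5 fell, near the shares of 26.9% and 35.7% over all loci. GSDMB, a gasdermin, was among the 15 largest rises (6.92 ± 0.368 FPKM in the combined group and 0.742 ± 0.167 with AZ1366, 2.19 ± 0.064). It stood at 0.494 to 0.635 FPKM in the vehicle libraries, so it passed the filter only through the libraries given gefitinib.

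Targets of FOXO factors, which AKT holds out of the nucleus, rose in 14 of 21 cases and fell in 3 (median 0.32, and 0.44 after length and GC correction). Over all loci 26.9% rose and 35.7% fell. PIK3IP1, an inhibitor of PI3K, stood at 20.7, 21.001, 18.8 and 18.97 FPKM in the combined libraries, against 8.498, 5.73, 5.37 and 6.27 with AZ1366 (1.499 ± 0.102, adjusted p = 9.55e-10). The ubiquitin ligase component FBXO32 (1.13 ± 0.063), YPEL3 (0.996 ± 0.056) and the transcriptional repressor HBP1 (0.96 ± 0.049) followed. Lysosome and autophagy genes rose in 17 of 30 cases and fell in 3 (median 0.27), led by GABARAPL1, an autophagosome protein of the ATG8 family (14.6 ± 0.652 FPKM in the combined group and 4.67 ± 0.158 with AZ1366, 1.46 ± 0.053), the autophagy receptor SQSTM1 (1.04 ± 0.062) and the cathepsin CTSH (0.86 ± 0.077).

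Among 21 NRF2 targets 10 rose and 2 fell (median 0.15), against 26.9% and 35.7% of all loci. The ferritin chains FTH1 (2807 ± 102 FPKM in the combined group and 1636 ± 142 with AZ1366, 0.78 ± 0.076) and FTL (0.81 ± 0.088), which store iron and share reads with pseudogenes, the haem-degrading enzyme HMOX1 (0.69 ± 0.076) and the aldo-keto reductase AKR1C3 (0.96 ± 0.066) rose. Chaperones went the other way, with 11 of 19 heat shock genes and cochaperones lower and 2 higher (median -0.38). The cochaperone STIP1 (-0.58 ± 0.057) and the HSP110 gene HSPH1 (-0.58 ± 0.103) fell, and the small heat shock genes HSPB8 (23.6 ± 0.8202 FPKM in the combined group and 12.3 ± 0.566 with AZ1366, 0.89 ± 0.056) and HSPB1 (0.71 ± 0.059) were the ones that rose.

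**Figure D3:**
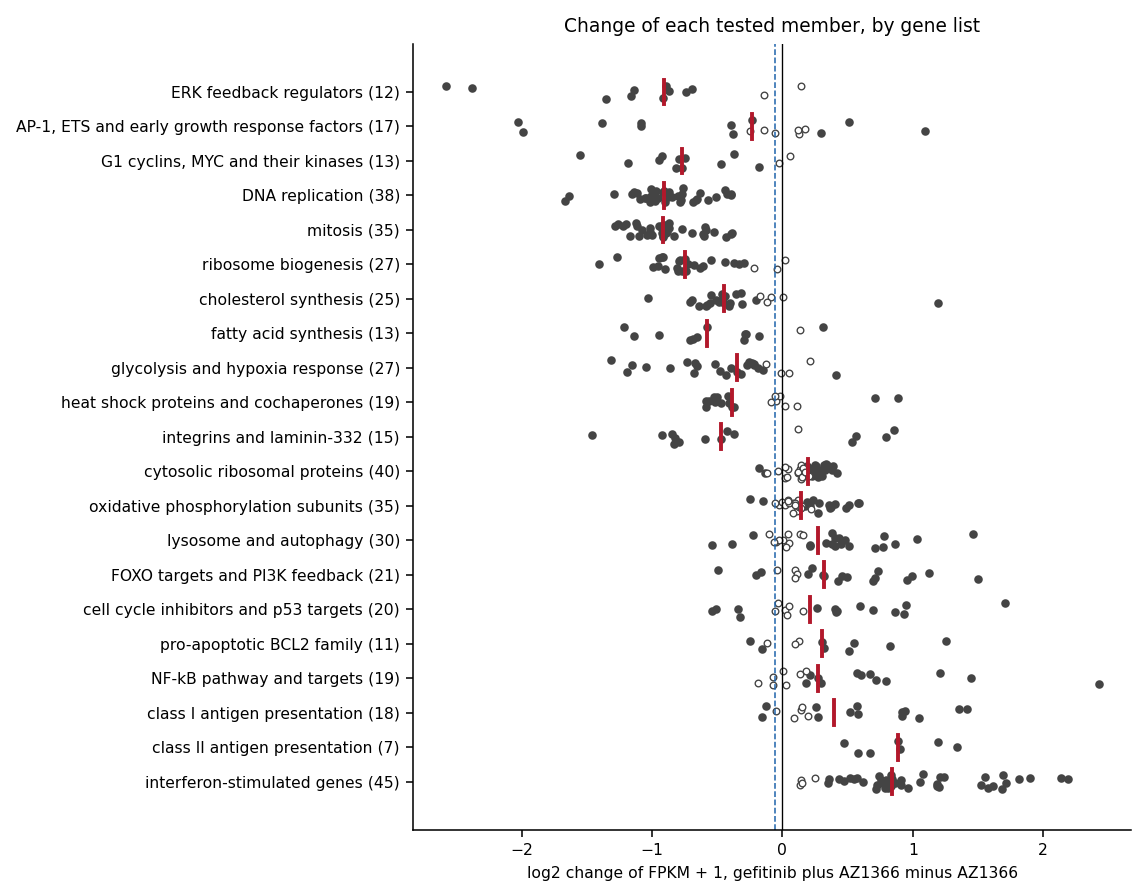
Log2 change of FPKM + 1 (gefitinib plus AZ1366 minus AZ1366) of each tested member of 21 gene lists, with the number of tested members in brackets; filled points passed an adjusted p under 0.05, open points did not, red bars are list medians and the dashed line is the median of all tested loci (-0.053). The DNA replication and mitosis lists lie wholly left of 0 with medians of -0.91, and the interferon-stimulated genes lie right of it with a median of 0.84.

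Lists of the pathways that AZ1366 itself is aimed at held both rises and falls when gefitinib was added. The tankyrase genes TNKS (3.71 ± 0.0503 FPKM in the combined group and 3.95 ± 0.327 with AZ1366, -0.068 ± 0.055, adjusted p = 0.293) and TNKS2 (0.079 ± 0.073, adjusted p = 0.362) did not pass. This depended on the scaling: after length and GC correction TNKS was 0.13 with adjusted p = 0.0454 and TNKS2 0.25 with adjusted p = 7.22e-06, and without AZ1366 replicate 1 TNKS2 was 0.17 with adjusted p = 0.0122. Of 16 tankyrase genes and known substrates, 3 rose and 2 fell, and 9 rose and 3 fell after that correction; RNF146, the ubiquitin ligase that reads the tankyrase mark, rose by 0.27 ± 0.072. AXIN2, the classical feedback target of beta-catenin, stood at 0.0209, 0.0390, 0.00833 and 0.0340 FPKM in the combined libraries, against 0.0307, 0.0144, 0.0141 and 0.0215 with AZ1366, and the ratio of the means was 1.27 (two-sided exact permutation p = 0.514). NKD1, another such target, averaged 0.00929 ± 0.00467 FPKM in the combined group and 0.0135 ± 0.00711 with AZ1366 (ratio 0.689, two-sided exact permutation p = 0.371). With 70 assignments the smallest p this test can give is 0.0286, after Benjamini-Hochberg adjustment over the 2 genes both p were 0.514, and at these levels a difference was not detectable.

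Of 9 tested Wnt feedback targets 3 rose and 6 fell, against 26.9% and 35.7% of all loci. SOX4 (0.78 ± 0.15, groups overlapping) and the receptor TNFRSF19 (7.46 ± 0.425 FPKM in the combined group and 3.52 ± 0.318 with AZ1366, 0.905 ± 0.062) rose, and the hyaluronan receptor CD44 (-0.53 ± 0.063) fell. Of 26 Wnt receptor, ligand and destruction complex genes 5 rose and 12 fell (10 and 12 after length and GC correction). CTNNB1, which encodes beta-catenin, fell to 64.5 ± 3.38 FPKM in the combined group, against 92.004 ± 10.6 with AZ1366 (adjusted p = 2.87e-06), the signal relay DVL1 changed by -0.702 ± 0.12, and the receptor FZD2 rose by 0.596 ± 0.075.

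YAP and TEAD targets split almost evenly, 12 up and 11 down among 26 (median 0.041), against 26.9% up and 35.7% down over all loci. CTGF, the target most often used as a readout, stood at 18.9, 20.2, 18.4 and 19.1 FPKM in the combined libraries, against 9.14, 9.07, 9.31 and 9.16 with AZ1366 (0.99 ± 0.045, adjusted p = 6.38e-12). ANKRD1 (0.78 ± 0.075), CYR61 (0.18 ± 0.058) and TGFB2 (1.06 ± 0.103) rose and NT5E fell. Upstream, 12 of 19 Hippo core and angiomotin genes fell and 3 rose. WWTR1, which encodes the YAP paralog TAZ, averaged 14.9 ± 1.57 FPKM in the combined group and 34.8 ± 7.07 with AZ1366 (-1.16 ± 0.101), and NF2, which activates the Hippo kinases, changed by -0.86 ± 0.097. The partner TEAD2 rose by 0.901 ± 0.063.

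The differentiation state of the cells showed no single shift from mesenchymal to epithelial. Of 21 mesenchymal genes 7 rose and 5 fell, with the matrix protein TNC (-1.07 ± 0.14) and VIM, which encodes vimentin (259 ± 11.4 FPKM in the combined group and 309 ± 27.96 with AZ1366, -0.25 ± 0.066), among the falls and the collagen crosslinker LOX (1.06 ± 0.087) among the rises. Of 25 epithelial junction and keratin genes 10 rose and 7 fell. CDH1, which encodes E-cadherin, averaged 137 ± 5.94 FPKM in the combined group and 182 ± 29.4 with AZ1366 (-0.4001 ± 0.081), and the keratins KRT18 (-0.58 ± 0.081) and KRT8 (-0.39 ± 0.071) fell, whereas the claudin CLDN1 (0.45 ± 0.052) and the epithelial factor ELF3 (0.53 ± 0.071) rose.

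Markers of lung lineages moved in both directions: of 10 tested alveolar and lung adenocarcinoma genes 3 rose and 4 fell (5 and 3 without AZ1366 replicate 1). The main counts are near the shares of 26.9% and 35.7% over all loci, so the list showed no common direction. HOPX, a marker of flat alveolar cells, stood at 15.05, 12.9, 14.7 and 16.7 FPKM in the combined libraries, against 2.82, 3.26, 3.49 and 3.53 with AZ1366 (1.89 ± 0.081, adjusted p = 2.88e-12). The phosphate transporter SLC34A2 of surfactant-producing cells averaged 13.7 ± 0.7297 FPKM in the combined group and 3.33 ± 0.163 with AZ1366 (1.76 ± 0.053), and LAMP3 changed by 0.79 ± 0.071. The falls were those of ETV5, given above, the lipid enzyme LPCAT1 (-0.67 ± 0.082), the caveolin CAV1 (-0.43 ± 0.043) and the surfactant lipid transporter ABCA3 (-0.22 ± 0.079). Of 10 tested mucin and airway secretory genes 4 rose and 3 fell (median -0.019), which again is no common direction. MUC20 (1.43 ± 0.086), SLPI, a protease inhibitor (1.23 ± 0.052), and MUC1 (0.88 ± 0.095) rose and SPDEF, a factor of goblet cells, fell (12.9 ± 1.05 FPKM in the combined group and 29.5 ± 1.905 with AZ1366, -1.13 ± 0.077). Of 12 tested cornified envelope and squamous genes 4 rose and 6 fell (median -0.075). The cornified envelope gene SPRR1B fell to 2.54, 2.904, 3.19 and 2.47 FPKM in the combined libraries, against 10.4, 10.3, 12.5 and 11.98 with AZ1366 (-1.702 ± 0.13), and the keratin KRT16 rose by 1.18 ± 0.070.

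At the cell surface and in the matrix, 10 of 15 integrin and laminin-332 genes fell and 4 rose (median -0.47), against 35.7% and 26.9% of all loci. ITGA6, a laminin receptor of epithelial attachment, stood at 41.2, 42.3, 35.9 and 36.2 FPKM in the combined libraries, against 133, 98.4, 102 and 104 with AZ1366 (-1.46 ± 0.082, adjusted p = 9.72e-11). The collagen receptor subunit ITGA2 (-0.93 ± 0.088) and the laminin receptor subunit ITGA3 (-0.85 ± 0.11) fell, and ITGB6, part of an integrin that activates latent TGF-beta, rose by 0.86 ± 0.061. Among 22 TGF-beta and BMP response genes 11 rose and 5 fell (median 0.20), with the pseudoreceptor BAMBI (1.22 ± 0.068) and ID3, an inhibitor of DNA binding (1.15 ± 0.072), up and the activin antagonist FST (-1.02 ± 0.064) down. Matrix proteases gave 3 rises and 4 falls among 17, and 8 and 5 after length and GC correction. MMP7, or matrilysin, averaged 74.04 ± 4.71 FPKM in the combined group and 13.5 ± 1.405 with AZ1366 (2.37 ± 0.078, adjusted p = 1.59e-13), and the collagenase MMP13 changed by 1.35 ± 0.070.

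The remaining genes among the 15 largest rises belonged to no list. The trypsin inhibitor SPINK1 averaged 124 ± 6.71 FPKM in the combined group and 26.9 ± 3.27 with AZ1366 (2.17 ± 0.079), the stress-induced chromatin protein NUPR1 7.69 ± 0.438 and 0.829 ± 0.243 FPKM (2.26 ± 0.088), and RARRES3, a phospholipase that retinoids induce, 169.8 ± 7.77 and 43.5 ± 4.56 FPKM (1.94 ± 0.066). NUPR1 stood at 0.820 to 1.07 FPKM in the vehicle libraries, so its pass of the filter leaned on the libraries given gefitinib. C8orf4 (2.04 ± 0.082), NKAIN4 (1.95 ± 0.075) and the selenium carrier gene SEPP1 (1.92 ± 0.096) completed them. Among the 15 largest falls, G0S2, an inhibitor of triglyceride lipase, averaged 15.04 ± 1.22 FPKM in the combined group and 58.3 ± 7.001 with AZ1366 (-1.88 ± 0.089). The chromatin protein HMGA2 (-1.77 ± 0.11), the guidance cue SEMA3A (-1.74 ± 0.070) and IL1RL1, the interleukin-33 receptor (-1.61 ± 0.067), had no list either.

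The effect of gefitinib was next set beside its effect without AZ1366, that is, gefitinib against vehicle, measured in the other 8 libraries. The 2 effects shared no library. Across the 11647 loci they correlated with Pearson r = 0.925 and Spearman rho = 0.914, a description across genes, which are not independent replicates. DUSP6 changed by -2.58 with AZ1366 and -2.73 with vehicle, CCND1 by -1.55 and -1.59, UBD by 3.31 and 3.304, and MX1 by 2.14 and 2.12. The interaction, which is the log2 change of gefitinib with AZ1366 minus that with vehicle, passed an adjusted p under 0.05 at 212 loci, 1.82% of those tested. It was above 0 at 38 (0.326%) and below 0 at 174 (1.49%), and no interaction reached 1 in size. Of the 212, on the log2(FPKM + 1) scale 104 fell on both backgrounds and fell further with AZ1366, 44 rose on both and rose less with AZ1366, 21 rose further, 11 fell less and 32 had changes of opposite sign. The number and the split depended on AZ1366 replicate 1: without it 255 loci were above 0 and 258 below, and all 212 kept their call. After quantile normalization 274 were above 0 and 346 below, after median-ratio scaling 125 and 294, and after length and GC correction 254 and 394.

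**Figure D4:**
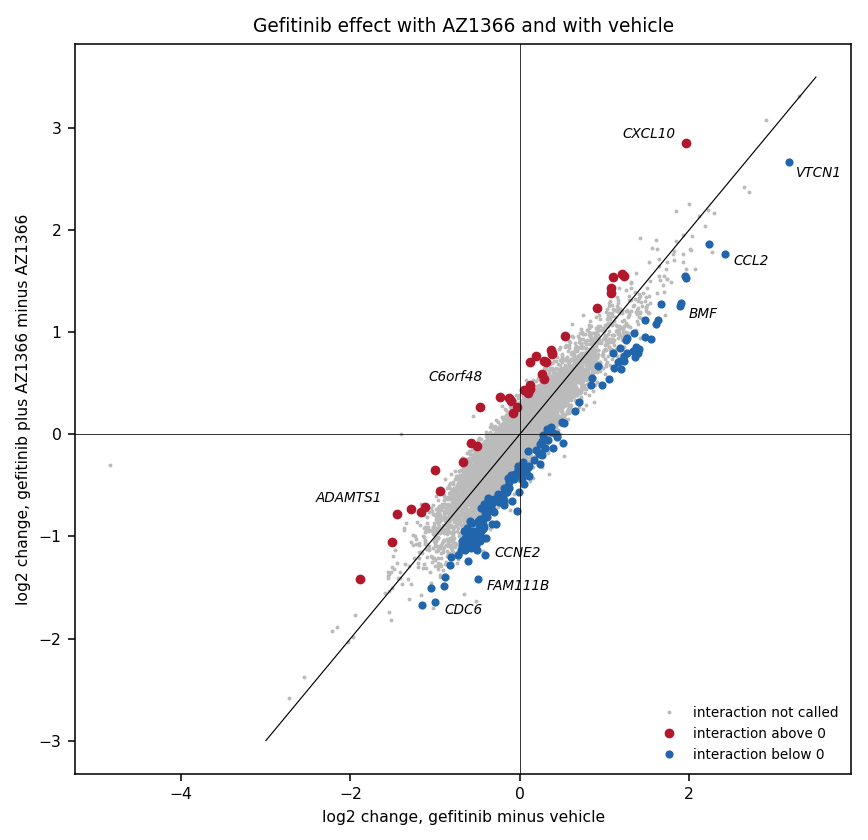
Each point is 1 tested locus, with its log2 change for gefitinib minus vehicle on the horizontal axis and for gefitinib plus AZ1366 minus AZ1366 on the vertical axis; the diagonal marks equal effects. Red points are the 38 loci with a called interaction above 0 and blue points the 174 below 0, and the blue points lie mostly where both changes are falls and the fall is larger with AZ1366.

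DNA replication genes were frequent among the interactions below 0. Of its 38 tested genes, 18 had an interaction below 0 and 0 above, against 1.49% and 0.326% of all loci, and the median change was -0.91 with AZ1366 and -0.56 with vehicle. Without AZ1366 replicate 1 the count was 21, and after length and GC correction 28. CDC6 averaged 7.4997 ± 0.502 FPKM in the combined group, 25.6 ± 3.32 with AZ1366, 16.7 ± 0.448 with gefitinib and 34.6 ± 0.9904 with vehicle, so the interaction was -0.63 ± 0.099 (adjusted p = 0.00445). A larger fall on the log2(FPKM + 1) scale need not be a larger fall in FPKM. For CDC6 the falls in FPKM on the 2 backgrounds were similar in size. POLE2, a subunit of a replicative polymerase, averaged 8.84 ± 0.572, 18.9 ± 1.21, 13.02 ± 0.963 and 17.6 ± 1.79 FPKM in the same 4 groups (-0.61 ± 0.103, adjusted p = 0.00577), and for both genes the combined group was the lowest of the 4. MCM10 had an interaction of -0.52 ± 0.11 (adjusted p = 0.0224), a call that 5 of the fits that leave out 1 library lost, with interactions of -0.52 to -0.47.

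Among G1 cyclins and kinases 3 of 13 had an interaction below 0 (CCNE2, CCNE1 and CDK2) and among mitosis genes 8 of 35, against 1.49% of all loci. CCNE2 averaged 5.19 ± 0.176 FPKM in the combined group, 13.1 ± 0.863 with AZ1366, 8.75 ± 0.232 with gefitinib and 12.03 ± 1.25 with vehicle (-0.77 ± 0.092, adjusted p = 0.00115). Outside the lists, FAM111B, a protease-like gene, had the largest interaction of all below 0: 7.44 ± 0.469, 21.8 ± 3.39, 18.3 ± 3.91 and 25.8 ± 1.59 FPKM (-0.92 ± 0.17, adjusted p = 0.00938). The chromatin protein HMGB2 changed by -0.75 with AZ1366 and did not pass with vehicle (-0.034; interaction -0.72 ± 0.17), but the interaction lost this call in 11 of the 16 fits without 1 library. The chromatin ATPase ATAD2 (-0.63 ± 0.13) and FAM54A (-0.62 ± 0.13) also had interactions below 0; ATAD2 lost its call without gefitinib replicate 1 (-0.58), gefitinib replicate 2 (-0.57) or replicate 4 of the combined group (-0.59), and FAM54A without vehicle replicate 4 (-0.58) or AZ1366 replicate 4 (-0.58). ERK feedback regulators had 0 of 12 in either direction, although 2 of 12 were above 0 without AZ1366 replicate 1. Ribosome biogenesis genes and interferon-stimulated genes had 0 of 27 and 0 of 45, and without that library 1 interferon-stimulated gene was below 0. With 1.82% of all loci called, lists of these sizes would hold few calls or none. The counts of 0 therefore do not show equal effects on the 2 backgrounds. The median interactions of these 3 lists were 0.089 (ERK feedback), 0.057 (ribosome biogenesis) and -0.104 (interferon-stimulated).

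**Figure D5:**
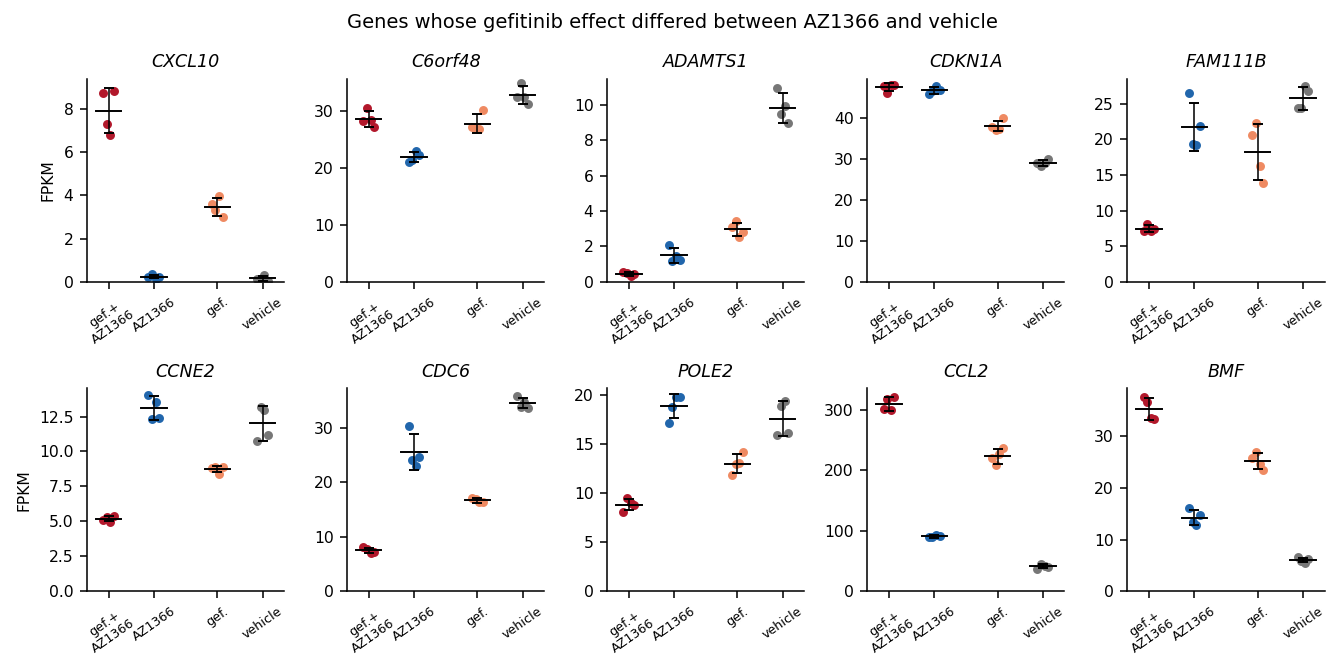
FPKM in each library of 10 genes with a called interaction, for gefitinib plus AZ1366 (red), AZ1366 (blue), gefitinib (gef., orange) and vehicle (grey), 4 libraries each; bars show the mean and SD and axes start at 0. For CDC6, POLE2, CCNE2 and FAM111B the red points are the lowest of the 4 groups, and for CDKN1A the red and blue points lie together while the orange points lie above the grey ones.

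On the log2(FPKM + 1) scale some rises were smaller on the AZ1366 background, which need not hold for differences in FPKM. BMF averaged 35.3 ± 2.18 FPKM in the combined group, 14.2 ± 1.49 with AZ1366, 25.2 ± 1.53 with gefitinib and 6.04 ± 0.451 with vehicle, a change of 1.26 with AZ1366 and 1.898 with vehicle (-0.64 ± 0.101, adjusted p = 0.00451); its level was nevertheless highest in the combined group. CCL2 followed the same pattern, at 311 ± 11.5, 90.8 ± 1.98, 224 ± 12.1 and 41.05 ± 3.51 FPKM (-0.66 ± 0.082, adjusted p = 0.00115). VTCN1 (-0.52 ± 0.085), ITGB6 (-0.52 ± 0.086), FBXO32 (-0.51 ± 0.089), BIRC3 (-0.47 ± 0.101) and the pregnancy glycoprotein gene PSG5 (-0.61 ± 0.12) also rose less with AZ1366 than with vehicle. The BIRC3 call was lost without gefitinib replicates 1 or 2 or replicates 3 or 4 of the combined group, with interactions of -0.46 to -0.43. CDKN1A averaged 47.6 ± 0.999 FPKM in the combined group, 46.8 ± 0.839 with AZ1366, 38.1 ± 1.34 with gefitinib and 29.1 ± 0.728 with vehicle, so gefitinib raised it with vehicle (0.38 ± 0.042) and its change with AZ1366 did not pass (-0.35 ± 0.059 between the 2, adjusted p = 0.00571). Apart from these rises, 4 of 25 cholesterol genes had an interaction below 0, against 1.49% of all loci, among them HMGCS1, MSMO1 and STARD4. The median change of that list was a fall on both backgrounds, -0.45 with AZ1366 and -0.24 with vehicle.

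Interactions above 0 were fewer among these calls. CXCL10 had the largest, at 7.93 ± 1.03 FPKM in the combined group, 0.233 ± 0.0847 with AZ1366, 3.48 ± 0.417 with gefitinib and 0.149 ± 0.123 with vehicle (0.89 ± 0.13, adjusted p = 0.00231). Its levels without gefitinib were below the pseudocount of 1 FPKM, and with a pseudocount of 0.1 FPKM the interaction was 0.66 and did not pass (adjusted p = 0.397). C6orf48, which hosts small nucleolar RNAs, averaged 28.6 ± 1.43, 21.9 ± 0.818, 27.8 ± 1.66 and 32.8 ± 1.56 FPKM in the same 4 groups, so it was higher in the combined group than with AZ1366 (0.37 ± 0.054) and lower with gefitinib than with vehicle (-0.23 ± 0.054; interaction 0.601 ± 0.077, adjusted p = 0.00115). IDO1 rose more with AZ1366 (1.54) than with vehicle (1.0996), and so did DDIT4L, a relative of an mTOR inhibitor (0.77 and 0.19). The zinc finger gene GLI4 and the endothelial nitric oxide synthase NOS3 rose with AZ1366 (0.71 and 0.36) and did not pass with vehicle (0.12 and -0.12), with interactions of 0.59 ± 0.12 and 0.49 ± 0.093; GLI4 lost this call without vehicle replicate 4 (0.57) or AZ1366 replicate 4 (0.56). CD320, the receptor for transcobalamin, fell with vehicle (-0.57) and did not pass with AZ1366 (-0.088), although it was -0.21 and passed after length and GC correction. ADAMTS1, COL8A1, MARCHF4 and AGPAT9 fell less with AZ1366 on the log2(FPKM + 1) scale, with interactions of 0.67, 0.65, 0.56 and 0.47. Their levels with AZ1366 were 1.49, 1.55, 1.498 and 6.03 FPKM, against 9.85, 4.86, 4.44 and 10.3 with vehicle, and none of the 4 interactions passed with the pseudocount of 0.1 FPKM. There, ADAMTS1 and MARCHF4 had smaller interactions (0.16 and 0.38), whereas those of COL8A1 and AGPAT9 were 0.703 and 0.45. AGPAT9 also lost its call in 10 of the 16 fits without 1 library, MARCHF4 in 5, and COL8A1 and ADAMTS1 without AZ1366 replicate 4 (0.59 and 0.63).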

How the data were processed

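RNA of 16 libraries of HCC4006 cells, 4 per treatment, was sequenced. The values deposited by the authors are FPKM per locus. The submitters' processing notes name TopHat 1.4.1, Cufflinks 1.3.0 and Cuffdiff and the build hg19; their settings are not given in the sources used here. From the deposited FPKM, log2(FPKM + 1) was computed for the 11647 of 24293 loci with a mean of at least 1 FPKM and fitted with limma 3.58.1 in R 4.3.3, with 1 term for each of the 4 groups, a trend of variance on mean level, and 12 degrees of freedom left. Contrasts were gefitinib plus AZ1366 minus AZ1366, gefitinib minus vehicle, and their difference (interaction). P-values were adjusted by Benjamini-Hochberg over all tested loci, and an adjusted p under 0.05 was a call. Values are means ± SD of 4 libraries, or log2 changes ± SE. AXIN2 and NKD1, below the filter, were compared by a two-sided exact permutation test of mean FPKM. The script was tested on simulated data.

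Read depth is unknown: the ratios of low values between libraries gathered loosely (at most 12.1% in the fullest bin of width 0.05) and whole reads could not be recovered, so no counting intervals are given. Summed FPKM were 443600 to 478179 in the 8 libraries. Symbols were taken from the table; of 643 loci without one, 563 were named through their RefSeq transcript. Promoters are RefSeq, GRCh38.p14, and coordinates of genes are hg19.

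The 44 gene lists (966 genes, 806 tested), the rule for named genes and the alternatives were chosen with earlier results of these data known, so the lists are no independent evidence. Named were the 15 largest rises and falls with groups that did not overlap, up to 4 called members of largest change in each list, the 10 largest interactions each way, and a fixed set of pathway genes. A few others (among them CD274 and HMGCS1, and in the interaction CDKN1A, IDO1, VTCN1, BIRC3, MCM10, FBXO32 and ITGB6) were picked once their values had been seen, and some genes are not reported here. The alternatives were another pseudocount (0.1 FPKM), no filter or a minimum mean of 5 FPKM, quantile or median-ratio scaling, no trend, only the 8 libraries, a replicate block, a length and GC correction (spline of 5 terms), both together, and each library left out.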

Additional observations from a re-analysis of the deposited data

Results flagged for a closer look

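In 354 groups of 4 libraries examined for the named genes, 21 had 1 library whose gap to the nearest was more than 0.829 of the group's range, where chance flags about 1 in 20. In 14 of these the library was AZ1366 replicate 1, which stood at 35.1 FPKM for PHLDA1, 20.6 for DUSP4, 8.98 for CHAF1A, 180.5 for ANLN, 48.1 for HSPH1, 14.4 for TGFB2, 45.2 for WWTR1, 54.3 for SOX4, 47.0 for LOX, 133 for ITGA6, 2.76 for BAMBI, 3.57 for NKAIN4 and 26.8 for ATAD2, all above the other 3 AZ1366 libraries, and at 1424 FPKM for FTH1, below them. AZ1366 replicate 2 was low for CHAC1 (2.24 FPKM) and AZ1366 replicate 3 for TNFSF10 (23.5 FPKM). Replicate 2 of the combined group was low for CDKN1A (46.1 FPKM) and high for PSMB9 (44.2 FPKM), FTL (1133 FPKM) and CYR61 (99.9 FPKM), and replicate 4 was high for UBD (31.4 FPKM).

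The change with gefitinib differed between AZ1366 and vehicle at 212 loci, by the interaction test. Among the named genes the difference in log2 change was above 0 for CXCL10 (0.89), ADAMTS1 (0.67), COL8A1 (0.65), C6orf48 (0.60), GLI4 (0.59), DDIT4L (0.58), MARCHF4 (0.56), NOS3 (0.49), CD320 (0.48), AGPAT9 (0.47) and IDO1 (0.44). It was below 0 for FAM111B (-0.92), CCNE2 (-0.77), HMGB2 (-0.72), CCL2 (-0.66), BMF (-0.64), CDC6 (-0.63), ATAD2 (-0.63), FAM54A (-0.62), PSG5 (-0.61), POLE2 (-0.61), ITGB6 (-0.52), VTCN1 (-0.52), MCM10 (-0.52), FBXO32 (-0.51), BIRC3 (-0.47) and CDKN1A (-0.35).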

How the results depend on the processing

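For gefitinib plus AZ1366 against AZ1366, 6634 to 7282 of the 7294 called loci kept their call. Of the calls still tested, 6633 of 7250 did so with length and GC correction, 6675 of 7250 with the replicate block added, and 5119 of 5126 at a minimum mean of 5 FPKM. No call became a call of the opposite sign in these fits. Leaving out 1 library gave 6699 to 7328 calls, 2868 to 3527 higher and 3663 to 4444 lower. The share of higher calls was 43.0% and ranged over 39.4% to 49.2%. Among named genes, CDKN1A (-0.014) and TNKS (0.13) changed sign with length and GC correction, with or without the replicate block, as did the median of the immune checkpoint list (-0.18) at a minimum mean of 5 FPKM; the cause was not tested. TNKS2 passed after quantile normalization (0.15), median-ratio scaling (0.13), length and GC correction (0.25) and without AZ1366 replicate 1 (0.17). Of the list medians, 30 values moved and 1 reversed.

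The interaction count was less stable. It was 620 after quantile normalization (274 above 0 and 346 below), 419 after median-ratio scaling (125 and 294), 648 after length and GC correction (254 and 394) and 650 with the replicate block added to that (245 and 405). The number above 0 was 25 with a pseudocount of 0.1 FPKM, 64 with no filter and 15 at a minimum mean of 5 FPKM. Leaving out 1 library gave 101 to 513 calls, 16 to 255 above 0 and 83 to 258 below; the total moved by over 1.5 times without vehicle replicates 1 and 4, gefitinib replicates 1 to 3, AZ1366 replicates 1 and 4 and each replicate of the combined group. The share above 0 was 17.9%, against 44.2% (quantile), 29.8% (median-ratio), 39.2% (length and GC) and 49.7% without AZ1366 replicate 1. Of the 27 named interactions, HMGB2, AGPAT9, MARCHF4, MCM10, BIRC3, ATAD2, GLI4, FAM54A, COL8A1 and ADAMTS1 lost their call in at least 1 fit without 1 library. Without 1 library, the AXIN2 difference in mean FPKM was 0.00088 to 0.0111 and that of NKD1 -0.0070 to -0.0012.

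Same-numbered libraries of the 2 groups deviated with correlations of 0.47, -0.45, 0.27 and 0.18, so the numbers do not pair the samples. Deviations were shared across numbers. Combined replicates 1 and 2 correlated with AZ1366 replicate 1 (0.47 and 0.61), combined replicates 3 and 4 with AZ1366 replicates 2 to 4 (0.18 to 0.46), and the other pairs at -0.64 to -0.22. The main fit has no term for this pattern, and its source was not tested. With a replicate block alone, 7261 of 7294 calls and 190 of 212 interactions were kept. Depth is unknown, so low loci such as AXIN2 have no stated precision.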

Other observations

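Lists chosen after the values were seen are described here and support nothing. Of 33 tested genes of homologous recombination and Fanconi repair, which mend breaks and crosslinks in DNA, 31 fell and 1 rose (median -0.73, against -0.48 for gefitinib with vehicle). Over all loci 35.7% fell and 26.9% rose. BRCA2, a recombination mediator, changed by -1.18, and FANCF was the one that rose (0.34). Of 12 genes that host small nucleolar RNAs, 7 rose and 3 fell with AZ1366, and the median was 0.24 with AZ1366 and -0.17 with vehicle. These medians do not show a reversal of the list: the median interaction was 0.091, with 2 called above 0 and 0 below. GAS5 rose by 0.83 with an interaction of 0.46.

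All 4 tested members of the apolipoprotein L family rose, with APOL3 at 1.201. In the kynurenine pathway, which breaks down tryptophan, 3 of 7 genes rose and 2 fell, with KMO (1.57) and KYNU (0.24) among the rises. KMO averaged 0.638 FPKM with AZ1366 and 0.433 with vehicle, so it passed the filter only through the libraries given gefitinib. In polyamine metabolism 4 of 12 rose and 6 fell: ODC1, the rate-limiting enzyme of synthesis, changed by -1.404 and SRM, the spermidine synthase, by -0.98, whereas SAT1, which marks polyamines for export, rose by 1.17. Genes of lipolysis and fatty acid oxidation gave 14 rises and 4 falls among 26 (median 0.14), and drug efflux pumps 2 rises and 1 fall among 5. Markers of drug-tolerant states gave 5 rises and 4 falls among 14 (median 0.049), near the shares of 26.9% and 35.7% over all loci, so the list showed no common direction. The aldehyde dehydrogenase ALDH3A1 (1.44) and the surface protein PROM1 (1.23) rose most, and the Notch target HES1 (-1.07) fell most. PROM1 averaged 0.489 FPKM with AZ1366 and 0.395 with vehicle, so it too passed the filter only through the libraries given gefitinib. The 5 genes ALDH1A3, KDM5A, KDM5B, NOTCH2 and NOTCH3 did not pass.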
